A study of Mus musculus with 12 samples.

Results

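Ferroptosis and iron handling were followed here through 10 listed genes of the deposited RNA-seq count table, which holds 22317 gene symbols. They were taken by symbol (Gpx4, Slc7a11, Aifm2, Nfe2l2, Acsl4, Fth1, Ftl1, Tfrc, Slc40a1 and Hmox1). No rule on measured values was used to choose them, although earlier results of these data were known. Each of the 10 was found in the table and passed the filter on low counts in every comparison.

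The study asked how the brain responds when the skull is injured and how the skull responds when the brain is injured. Injury was made by photothrombosis (PT), in which laser light on the circulating dye Rose Bengal closes the vessels of a chosen area. All animals were wild-type male BALB/c mice aged 8 weeks, with no transgene in any group. The libraries are bulk poly(A) RNA-seq of tissue pieces. SB2 and SB4 are labelled as cortex of the brain taken 2 and 4 days after skull injury, and BS2 and BS6 as interparietal bone taken 2 and 6 days after brain injury, with 3 libraries in each group that the study describes as biological replicates. The injured organ of each animal and uninjured controls were not analysed here.

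The transcripts went against the tissue labels in 2 of the 4 groups. Col1a1, the main collagen of bone, stood at 33530 to 36677 CPM (a gene's reads set against the depth of its library, with TMM scaling) in the libraries labelled SB2 and at 18025 to 76624 in those labelled BS6, against 2.55 to 4.01 in SB4 and 3.89 to 9.41 in BS2. Snap25, a synaptic protein of neurons, stood at 3461 to 3617 CPM in SB4 and 3323 to 3343 in BS2, against 8.92 to 24.8 in SB2 and 16.4 to 53.4 in BS6. The groups are therefore called by their labels, the libraries labelled SB2 and BS6 are called bone-rich, and those labelled SB4 and BS2 brain-rich. Under each tissue label the early and the late day thus differ in tissue content as well, and day and tissue cannot be told apart in SB4 against SB2 or in BS6 against BS2. The comparisons of like content are BS6 against SB2 and SB4 against BS2, in which the injured organ, the tissue label and the day all differ as labelled. Whether SB2 and BS2 were exchanged in labelling was not tested, and if they were, these comparisons would set days of the same injury and tissue against each other. Total counts ran from 14126082 to 18972654 per library. BS6 replicate 2 stood apart, with 21694 CPM over the neutrophil markers against 728 to 2840 in the other 5 bone-rich libraries.

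Ferroptosis is a form of cell death in which iron drives the peroxidation of polyunsaturated lipids in membranes. Gpx4 reduces these peroxides at the expense of glutathione, whose cysteine enters the cell as cystine through Slc7a11, while Aifm2 (FSP1) regenerates quinone radical traps without glutathione. Acsl4 supplies the other side by activating the polyunsaturated fatty acids that are built into phospholipids. Iron enters bound to transferrin through Tfrc, is stored in ferritin shells of Fth1 and Ftl1 chains, leaves through ferroportin (Slc40a1) and is freed from heme by Hmox1. Nfe2l2 (NRF2) is the transcription factor that switches on many of these genes under oxidative stress. In bone, marrow red cell precursors take up iron for hemoglobin and macrophages recover it from old red cells, and in the brain iron serves respiration and myelin.

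Several of these mRNAs carry an iron-responsive element (IRE), a short hairpin bound by the iron regulatory proteins when iron is low. In a 5′ UTR the bound protein blocks translation, and in a 3′ UTR it protects the mRNA from decay, so that only the second kind is read directly in mRNA counts. The hairpins are shown because they divide the iron genes into these 2 kinds. A search of GENCODE M21 transcripts (mm10) for a bulged C, a 5-base stem and a CAGTGN loop found 1 match in the 5′ UTR of each of Fth1 (chr19:9982732-9982761, plus strand), Ftl1 (chr7:45459778-45459807, minus strand) and Slc40a1 (chr1:45925464-45925493, minus strand). Tfrc had 4 matches in its 3′ UTR on the plus strand, at chr16:32631219-32631248, chr16:32631598-32631627, chr16:32631663-32631692 and chr16:32631710-32631739. In the sequences, written 5′ to 3′ on the strand of the gene and as DNA, capitals mark the bulged C and the 6-base loop.
Fth1: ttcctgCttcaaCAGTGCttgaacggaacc
Ftl1: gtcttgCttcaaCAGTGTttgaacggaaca
Slc40a1: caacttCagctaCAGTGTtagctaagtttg
Tfrc, match 1: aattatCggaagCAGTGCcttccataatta
Tfrc, match 2: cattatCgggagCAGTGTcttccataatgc
Tfrc, match 3: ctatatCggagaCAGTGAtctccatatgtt
Tfrc, match 4: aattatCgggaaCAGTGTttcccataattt

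Of 21877 coding genes searched, 23 (0.105%) had such a match in the 5′ UTR and 100 (0.457%) in the 3′ UTR. These counts cover every coding transcript of a gene, whereas the listed genes were searched only in the transcript with the longest coding sequence. The other 6 listed genes had no match there, which says only that these letters are not in that transcript.

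The levels of the 10 genes divided mainly by tissue content. Hmox1, Nfe2l2, Aifm2, Slc40a1, Ftl1 and Fth1 were higher in every bone-rich library than in any brain-rich one, Acsl4 was lower in every bone-rich library, and Gpx4, Slc7a11 and Tfrc crossed between them. Slc7a11 and Fth1 also differed between groups of like content. In tissue pieces like these, fewer cells of a type and less RNA per cell cannot be told apart. Values below are CPM of each library in the order of replicates 1, 2 and 3. Tests are edgeR quasi-likelihood fits of the groups compared, with p-values adjusted by Benjamini-Hochberg over all genes tested, and a gene is called when its adjusted p is below 0.05 and its log2 fold change is beyond 1 in either direction. The p-values measure the spread between these libraries.

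**Figure D1:**
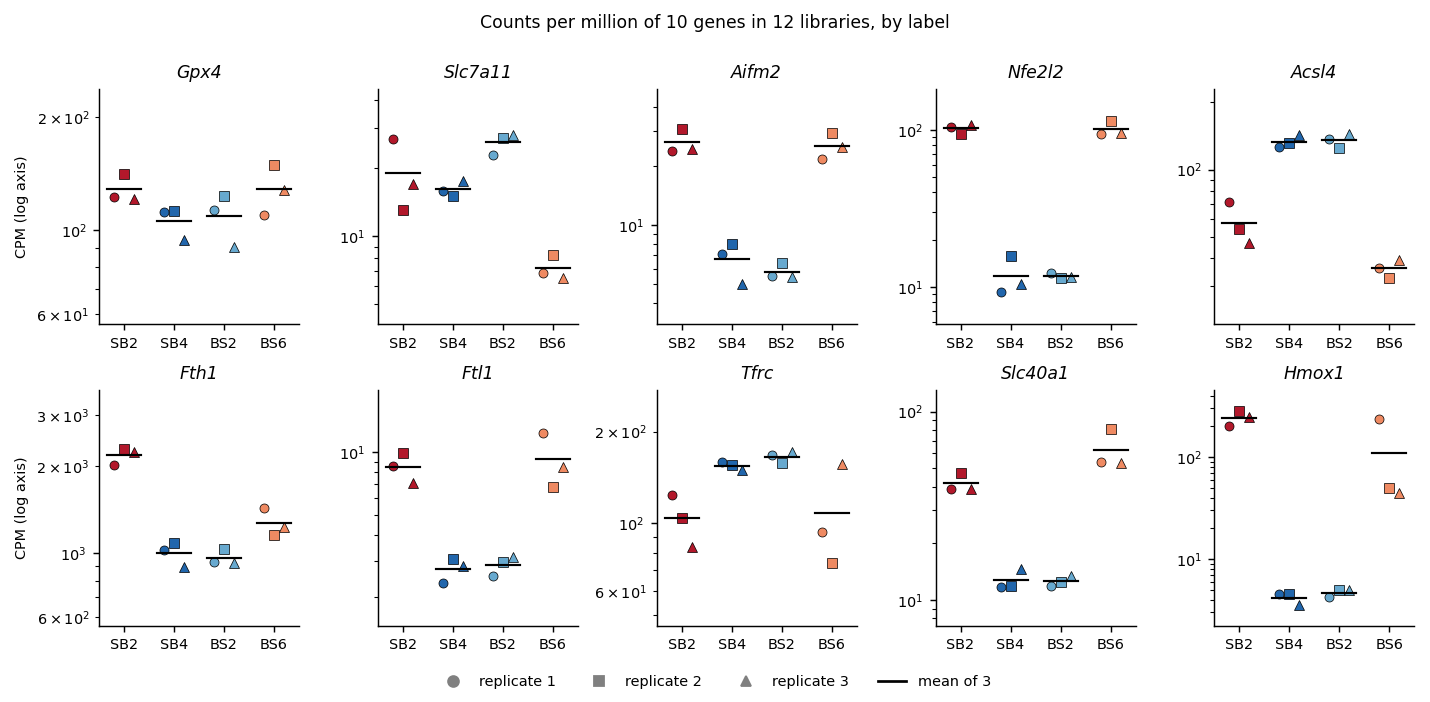
CPM of each of the 10 genes (log axis) in the 12 libraries, by group label, with the marker shape giving the replicate number and the bar the mean of 3. Hmox1, Nfe2l2, Aifm2, Slc40a1 and Ftl1 sit high in SB2 and BS6 and low in SB4 and BS2, Acsl4 shows the opposite, and Slc7a11 is lowest in BS6.

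Among the genes that hold lipid peroxides down, Gpx4 (ENSMUSG00000075706.10, chr10:80047166-80056439, plus strand) was the most even. It measured 122.7, 142 and 121 CPM in SB2, 112, 113 and 94.4 in SB4, 114, 123.1 and 90.2 in BS2, and 109.5, 149 and 128 in BS6. All 12 libraries lay within a narrow band, SB4 entirely below SB2 and BS2 overlapping BS6. The log2 fold change was -0.27 (SE 0.0861, adjusted p = 0.0125) in SB4 against SB2 and 0.28 (95% interval -0.12 to 0.69, adjusted p = 0.169) in BS6 against BS2, neither a call, and the former no longer passed without SB2 replicate 2 (adjusted p = 0.0501) or SB4 replicate 3 (0.0794), or with all 12 libraries in 1 fit (0.0884). Between groups of like content it was 0.02 (-0.32 to 0.37, adjusted p = 0.934) in BS6 against SB2. No neighbouring pair in the order of the 4 group means passed the test. Of its 100-base exon windows, 48.4% are shared with other places in the transcriptome, chiefly the processed copy Gpx4-ps2 (99.7% identical), so reads may have been split between them. The sum of both was 187 ± 17.8 (SD, n = 3) CPM in SB2, 146 ± 15.3 in SB4, 148 ± 23.6 in BS2 and 180 ± 28.6 in BS6, the same order of bone-rich above brain-rich means.

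Slc7a11 (ENSMUSG00000027737.10, chr3:49892526-50443614, minus strand), the cystine-importing subunit of system xc-, followed a pattern of its own. It measured 26.9, 13.1 and 16.97 CPM in SB2, 15.8, 15.1 and 17.5 in SB4, 22.9, 27.2 and 28.1 in BS2, and 6.85, 8.27 and 6.55 in BS6. The 3 BS6 libraries were the lowest of the 12, BS2 lay above SB4 without overlap, and SB2 spread over a 2.06-fold range that covered SB4. BS6 was 3.51-fold below BS2 (log2 fold change -1.81, SE 0.158, adjusted p = 8.43e-05). BS6 was also 2.59-fold below SB2, where both groups are bone-rich (-1.38, SE 0.289, adjusted p = 0.0486). SB4 was 1.63-fold below BS2, where both are brain-rich (-0.70, SE 0.103, adjusted p = 0.000775), a step that passed on adjusted p and fell short of the fold needed for a call, and whose adjusted p was 0.920 in a single fit of all 12 libraries. SB4 against SB2 did not pass (-0.23, 95% interval -0.83 to 0.36, adjusted p = 0.411), although without SB2 replicate 2 it did (-0.44, adjusted p = 0.0498) and without SB2 replicate 1 the direction turned (0.10). In the order BS2, SB2, SB4, BS6, of the neighbouring steps only the last passed (adjusted p = 0.000716). The step between the bone-rich groups rested on a margin: its adjusted p rose above 0.05 on leaving out any library other than BS6 replicate 2, reaching 0.182 without SB2 replicate 1, and it was 0.000645 with DESeq2.

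Aifm2 (ENSMUSG00000020085.15, chr10:61715263-61739260, plus strand) measured 23.8, 31.0 and 24.4 CPM in SB2, 7.09, 8.05 and 5.01 in SB4, 5.49, 6.40 and 5.45 in BS2, and 21.6, 29.3 and 25.0 in BS6. The bone-rich and the brain-rich libraries formed separate ranges. It fell 3.91-fold from SB2 to SB4 (log2 fold change -1.97, SE 0.175, adjusted p = 1.26e-06) and rose 4.49-fold from BS2 to BS6 (2.17, SE 0.169, adjusted p = 5.26e-05). Within like content, BS6 against SB2 gave -0.04 (adjusted p = 0.894) and SB4 against BS2 gave 0.20 (adjusted p = 0.718). Its exons overlap those of H2afy2 on the opposite strand, and whether counting used strand is not given in the sources used here.

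Nfe2l2 (ENSMUSG00000015839.6, chr2:75675513-75704641, minus strand) measured 105, 94.1 and 107 CPM in SB2, 9.29, 15.7 and 10.4 in SB4, 12.3, 11.3 and 11.6 in BS2, and 93.7, 114 and 95.02 in BS6. Every bone-rich library held at least 93.7 CPM and no brain-rich library more than 15.7. It fell 8.57-fold from SB2 to SB4 (log2 fold change -3.10, SE 0.171, adjusted p = 3.27e-07) and rose 8.83-fold from BS2 to BS6 (3.14, SE 0.127, adjusted p = 5.85e-06). BS6 and SB2 had means of 101 ± 11.5 and 102 ± 6.99 CPM (SD, n = 3), a log2 fold change between -0.29 and 0.29 by its 95% interval (adjusted p = 0.991).

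Acsl4 (ENSMUSG00000031278.12, chrX:142317993-142390535, minus strand), the acyl-CoA ligase that commits arachidonic and adrenic acid to phospholipids, ran the other way. It measured 71.4, 53.9 and 46.9 CPM in SB2, 126, 131 and 142 in SB4, 137, 125 and 144 in BS2, and 36.5, 32.6 and 39.5 in BS6. The brain-rich libraries were all at 125 CPM or more, the bone-rich ones at 71.4 or less, and BS6 was entirely below SB2. It rose 2.33-fold from SB2 to SB4 (log2 fold change 1.22, SE 0.145, adjusted p = 7.88e-05) and fell 3.64-fold from BS2 to BS6 (-1.87, SE 0.109, adjusted p = 1.81e-05). The step from SB2 down to BS6 was -0.65 and did not pass (adjusted p = 0.0753 with edgeR, 0.0235 with DESeq2 and 0.0114 with edgeR on all 12 libraries in 1 fit).

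Iron storage was read from the 2 ferritin chains. Fth1 (ENSMUSG00000024661.7, chr19:9980598-9985098, plus strand), the ferritin heavy chain with the ferroxidase site, measured 2009, 2285 and 2228 CPM in SB2, 1023, 1079 and 894 in SB4, 932, 1031 and 919.5 in BS2, and 1428, 1149.7 and 1228 in BS6. The SB2 libraries stood above all others and BS6 lay between SB2 and the brain-rich groups, without overlap on either side. Fth1 fell 2.17-fold from SB2 to SB4 (log2 fold change -1.12, SE 0.0940, adjusted p = 5.19e-07). From BS2 to BS6 it was 1.36-fold higher (0.44, SE 0.137, adjusted p = 0.0244), which is not a call and passed only without BS6 replicate 2 or 3 of the 6 fits that leave out a library (adjusted p up to 0.114). Between the bone-rich groups it was 1.69-fold lower in BS6 than in SB2 (-0.76, SE 0.163, adjusted p = 0.0494). That last adjusted p ran from 1.01e-05 to 0.195 over the alternatives, and of the 6 fits that leave out a library only the fit without BS6 replicate 2 passed (0.00827).

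Ftl1 (ENSMUSG00000050708.16, chr7:45457944-45459884, minus strand), the ferritin light chain that aids mineral formation, had only 33 to 190 counts per library. It measured 8.60, 9.86 and 7.08 CPM in SB2, 2.34, 3.04 and 2.84 in SB4, 2.54, 2.95 and 3.12 in BS2, and 12.4, 6.83 and 8.46 in BS6. Bone-rich and brain-rich libraries again did not overlap. It fell 3.07-fold from SB2 to SB4 (log2 fold change -1.62, SE 0.198, adjusted p = 1.37e-05) and rose 3.30-fold from BS2 to BS6 (1.72, SE 0.268, adjusted p = 0.00115). Its level is uncertain, because its exons overlap Gm10252 on the opposite strand and 60.4% of its 100-base exon windows also occur elsewhere, in copies such as Ftl1-ps1 (99.6% identical) and Ftl2-ps (98.7%). Ftl1 took 63.1% to 76.3% of the summed counts of itself and these copies in the bone-rich libraries and 87.5% to 93.5% in the brain-rich ones.

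Iron uptake and export differed in how they followed tissue. Tfrc (ENSMUSG00000022797.16, chr16:32608920-32632794, plus strand), the transferrin receptor, measured 124, 104 and 83.6 CPM in SB2, 159, 155 and 149.8 in SB4, 167, 158 and 171 in BS2, and 93.3, 73.8 and 157 in BS6. The brain-rich libraries were tight, and of the bone-rich ones only BS6 replicate 3 reached their range. SB4 was 1.496-fold above SB2 (log2 fold change 0.58, SE 0.125, adjusted p = 0.00215), below the fold of a call. BS6 against BS2 gave -0.58 (95% interval -1.23 to 0.07, adjusted p = 0.0909), while without BS6 replicate 3 it gave -0.94 (adjusted p = 0.00193) and with all 12 libraries in 1 fit -0.58 (adjusted p = 0.0367). BS6 against SB2 gave 0.07 with a wide interval of -0.64 to 0.79 (adjusted p = 0.895).

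Slc40a1 (ENSMUSG00000025993.10, chr1:45908068-45926523, minus strand), the only known cellular iron exporter, measured 38.9, 47.4 and 38.6 CPM in SB2, 11.7, 11.9 and 14.6 in SB4, 11.9, 12.4 and 13.4 in BS2, and 53.8, 81.1 and 53.3 in BS6. All bone-rich libraries stood above all brain-rich ones, and BS6 stood entirely above SB2. It fell 3.24-fold from SB2 to SB4 (log2 fold change -1.70, SE 0.121, adjusted p = 1.18e-07) and rose 5.13-fold from BS2 to BS6 (2.36, SE 0.203, adjusted p = 8.01e-05). BS6 against SB2 gave 0.61 (95% interval 0.13 to 1.09), which did not pass after adjustment (adjusted p = 0.112) but did without BS6 replicate 2 (0.37, adjusted p = 0.0477) and with all 12 libraries in 1 fit (0.64, adjusted p = 0.0207).

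Hmox1 (ENSMUSG00000005413.8, chr8:75093621-75100589, plus strand), the inducible enzyme that opens heme and releases its iron, had the widest range of the list. It measured 202, 282 and 248 CPM in SB2, 4.54, 4.51 and 3.56 in SB4, 4.25, 4.93 and 4.94 in BS2, and 237, 49.95 and 44.8 in BS6. The brain-rich libraries all lay at 4.94 CPM or less, and the BS6 libraries differed among themselves by 5.29-fold, with replicate 1 inside the range of SB2 and replicates 2 and 3 far below it. Hmox1 fell 58.0-fold from SB2 to SB4 (log2 fold change -5.86, SE 0.160, adjusted p = 7.36e-10) and rose 24.1-fold from BS2 to BS6 (4.59, SE 0.772, adjusted p = 0.00175). BS6 against SB2 gave -1.13 (95% interval -2.72 to 0.46, adjusted p = 0.300). Without BS6 replicate 1 that difference was -2.34 with an adjusted p of 0.0332, a call, and BS6 against BS2 was 3.38 (adjusted p = 3.71e-05).

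Levels were set between genes only per kilobase of merged exon. On that scale Fth1 led in every group, with mean CPM per kilobase of 627 in SB2, 366 in BS6, 288 in SB4 and 277 in BS2. Hmox1 came next in SB2 at 139, ahead of Gpx4 at 74.5, whereas in SB4 the order after Fth1 was Gpx4 at 61.6, Tfrc at 25.0 and Acsl4 at 24.6, with Hmox1 at 2.40. Slc7a11 was the lowest of the 10 in SB2 (1.36), SB4 (1.16) and BS6 (0.519), whereas in BS2 it stood at 1.87, above Slc40a1 at 1.396 and Aifm2 at 1.402. Such close places depend on the length used. Merged exons span 13922 bases for Slc7a11, 9000 for Slc40a1 and 4121 for Aifm2. The transcript with the longest coding sequence has 9223, 3370 and 1329 bases. Gpx4 is ranked here without its copy.

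Counted over the list, SB4 against SB2 had 7 of 10 genes called, Acsl4 higher and Nfe2l2, Aifm2, Fth1, Ftl1, Slc40a1 and Hmox1 lower, while 56.4% of the 17293 genes tested were called (27.8% higher, 28.6% lower). On adjusted p alone 9 of 10 passed, against 83.3%. The libraries of the 2 groups did not overlap for 9 of the 10 genes, Slc7a11 excepted, against 85.5% of all genes. The median log2 fold change was -1.37 over the 10 genes and -0.01 over all genes. BS6 against BS2 also had 7 of 10 called, Aifm2, Nfe2l2, Ftl1, Slc40a1 and Hmox1 higher and Slc7a11 and Acsl4 lower, against 55.5% of 17311 genes (29.0% higher, 26.5% lower), and 8 passed on adjusted p alone, against 75.0%. Here 9 genes did not overlap, Gpx4 excepted, against 80.8% of all genes, and the medians were 1.08 and 0.02. Calls are common over the whole table in both comparisons, and the list was not tested as a group.

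Between groups of like content the counts were small. BS6 against SB2 had 1 of 10 called, Slc7a11, against 1.86% of 16329 genes, 2 on adjusted p alone (Slc7a11 and Fth1) against 5.71%, and 4 without overlap (Slc7a11, Acsl4, Fth1 and Slc40a1) against 38.1%. SB4 against BS2 had 0 of 10 called with edgeR and 0 with DESeq2, against 0.147% of 16278 genes. There 1 listed gene, Slc7a11, had an unadjusted p below 0.05, beside 1933 of the 16278 genes. It was the only listed gene to pass on adjusted p alone (against 0.94% of all genes). Slc7a11 was also the only one whose libraries did not overlap, against 16.5% of all genes. The other 9 genes had log2 fold changes of -0.18 to 0.20 between the brain-rich groups. The change from BS2 to BS6 differed from the change from SB2 to SB4 for all 10 genes at an adjusted p below 0.05 in a single edgeR contrast, against 84.9% of 18068 genes.

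**Figure D2:**
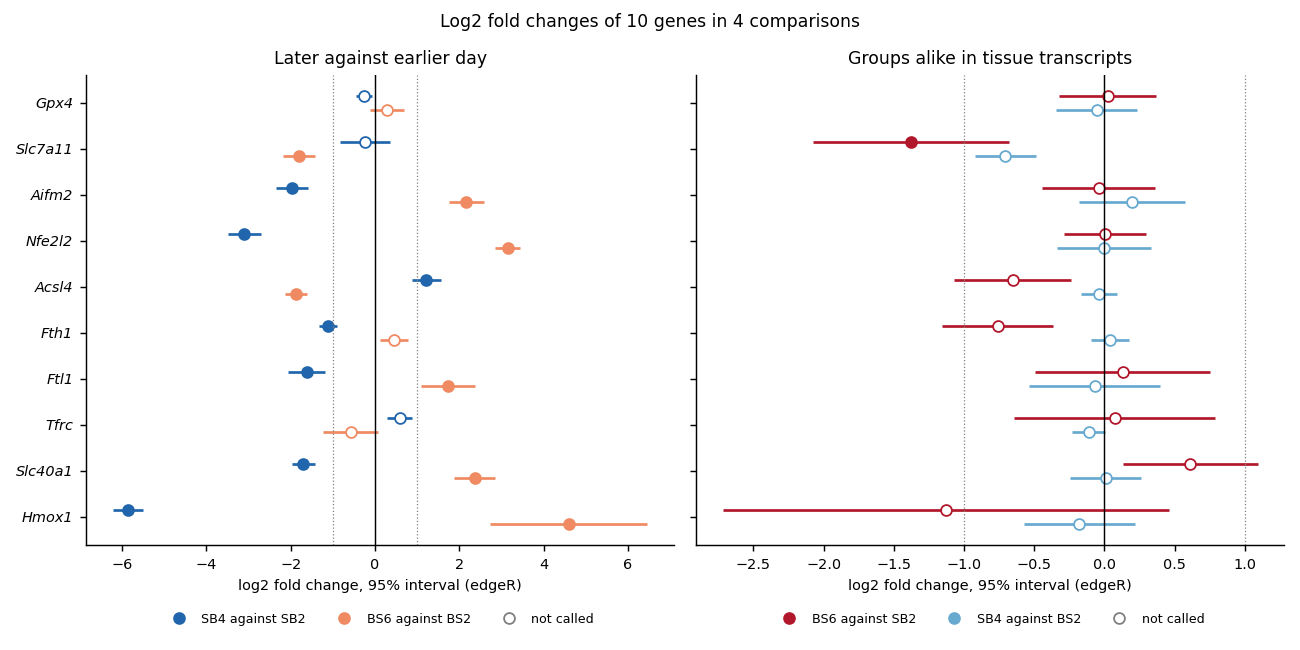
Log2 fold change of each gene with its 95% interval, SB4 against SB2 and BS6 against BS2 on the left, BS6 against SB2 and SB4 against BS2 on the right, with open symbols for genes not called and dotted lines at a log2 fold change of 1 in either direction. The left panel spans -5.86 to 4.59 for Hmox1, while on the right Slc7a11 is the only called gene, at -1.38 in BS6 against SB2.

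Ratios of 2 genes within a library do not depend on how libraries were scaled, and they set uptake, storage, export and defence against each other. The smallest p that an exact permutation of 3 against 3 libraries can give is 0.1, so separation is described by range. The log2 ratio of Tfrc to Fth1 counts, uptake over storage, averaged -4.41 in SB2, -3.62 in BS6, -2.69 in SB4 and -2.54 in BS2. It was 1.72 higher in SB4 than in SB2, 1.08 lower on the log2 scale in BS6 than in BS2, and 0.78 higher in BS6 than in SB2, each at the smallest possible two-sided exact p of 0.1. Export over uptake, Slc40a1 to Tfrc, averaged -1.31 in SB2 and -0.74 in BS6 against -3.61 in SB4 and -3.72 in BS2. BS6 and SB2 did not separate on it (difference 0.57, exact permutation p = 0.4).

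Cystine import over peroxide reduction, Slc7a11 to Gpx4, averaged -2.82 in SB2, -2.72 in SB4, -2.06 in BS2 and -4.15 in BS6. It separated BS6 from BS2 (difference -2.10), BS6 from SB2 (-1.33) and SB4 from BS2 (-0.66), each at an exact permutation p of 0.1, and not SB4 from SB2 (0.11, p = 0.9). Fth1 to Ftl1 averaged 8.01 in SB2, 8.51 in SB4, 8.39 in BS2 and 7.14 in BS6, a ratio that carries the uncertainty of Ftl1 counts.

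**Figure D3:**
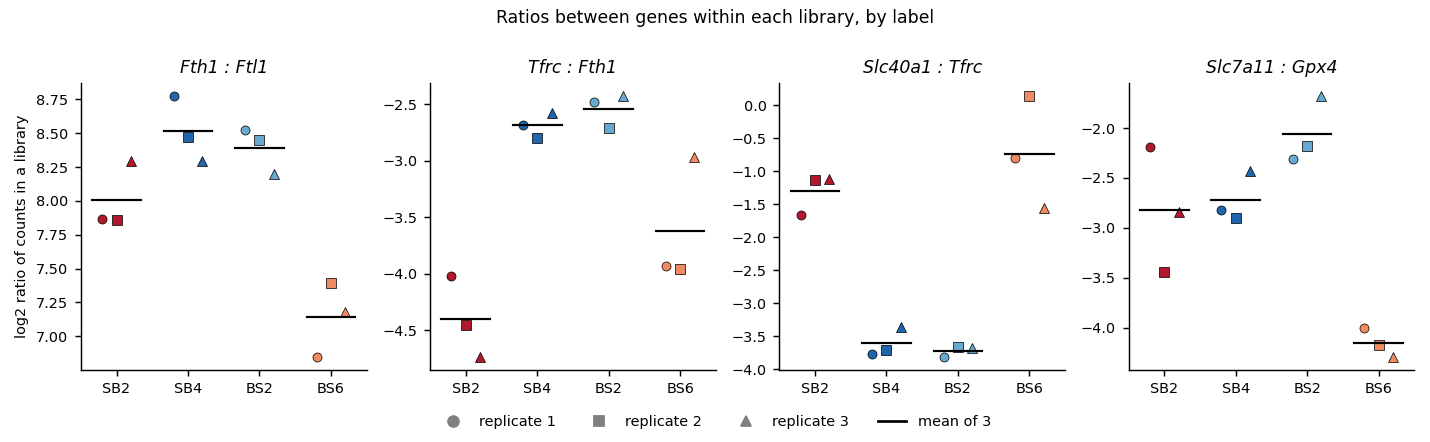
Log2 count ratios of 4 gene pairs in each library, by group label, with the bar at the mean of 3. Tfrc to Fth1 is lowest in SB2 at a mean of -4.41, and Slc7a11 to Gpx4 is lowest in BS6 at a mean of -4.15.

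Other genes of the pathway were read from lists of 110 genes in 11 roles, of which 108 are in the table. In SB4 against SB2, 12 of 104 tested were called higher, 40 lower and 52 not called, with a median log2 fold change of -0.40, while 27.8% of all genes were called higher and 28.6% lower. In BS6 against BS2, 40 of 104 were called higher, 14 lower and 50 not, with a median of 0.54, while 29.0% of all genes were called higher and 26.5% lower. With both directions counted together, 52 and 54 of 104 were called, against 56.4% and 55.5% of all genes. The counts by role below are to be read against the percentages of their direction. Iron and heme uptake was called in a single direction in each. Of its 12 genes tested in SB4 against SB2, 9 fell and 0 rose, and of 11 tested in BS6 against BS2, 8 rose and 0 fell, beside 28.6% of all genes lower in the former and 29.0% higher in the latter. In SB4 against SB2 the uptake genes that fell included Hp, which carries free hemoglobin and dropped from 75.8 to 0.366 CPM (log2 fold change -7.69, adjusted p = 2.82e-07), Cd163, the macrophage receptor for that complex (34.6 to 1.21, -4.79, adjusted p = 3.80e-10), and Steap3, the endosomal ferrireductase (61.3 to 2.54, -4.58, adjusted p = 1.71e-11). Trf (transferrin), Tfr2, Slc11a2 and Slc48a1 were not called in either day comparison, and not all of them passed the filter on low counts.

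Iron export and the hepcidin axis had 6 of 8 genes lower in SB4 against SB2 and 5 of 8 higher in BS6 against BS2. Cp, the ferroxidase that works with ferroportin, dropped from 330 to 13.9 CPM in the first (-4.56, adjusted p = 7.76e-05). Among NRF2 control and stress regulators, 7 of 12 fell in SB4 against SB2 (Bach1, Maff, Mafk, Atf3, Atf4, Hspb1 and Trp53) and 6 of 12 rose and 2 fell (Cul3 and Srxn1) in BS6 against BS2, with Keap1, the adaptor that marks NRF2 for degradation, at -0.05 and 0.08 and not called. Of the iron regulatory proteins, Aco1 fell in SB4 against SB2 (-1.05) and was at 0.67, not called, in BS6 against BS2, and Ireb2 was not called in either. Ncoa4, the receptor that delivers ferritin to lysosomes, was at 0.13 and 0.26, not called.

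Cystine and glutathione supply split. Cbs, the first enzyme from homocysteine toward cysteine, rose from 0.558 to 20.6 CPM in SB4 against SB2 (5.21, adjusted p = 5.33e-10) and fell from 23.4 to 1.86 in BS6 against BS2 (-3.59, adjusted p = 0.00327), so its higher level lay in the brain-rich libraries. Cth, the next enzyme, was called in the same directions (1.62 and -2.62), whereas Gsr and Mgst1 were called in the reverse ones. Selenoprotein synthesis had 6 of 8 genes not called in each day comparison. The exceptions were Lrp8, the neuronal receptor for selenoprotein P, at 14.2 to 134 CPM in SB4 against SB2 (3.23, adjusted p = 4.09e-05) and 126 to 20.9 in BS6 against BS2 (-2.54, adjusted p = 0.00107), and Selenop itself, which moved the other way (-1.03 and 1.95).

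Lipid genes also split, with 3 higher and 6 lower of 18 in SB4 against SB2 and 8 higher and 6 lower of 19 in BS6 against BS2. Acsl3, which activates monounsaturated fatty acids, rose from 44.9 to 169 CPM in the first (1.91, adjusted p = 4.03e-10) and fell from 182 to 45.95 in the second (-1.95, adjusted p = 1.60e-05), like Acsl4. Mboat2, a phospholipid acyltransferase, rose from 9.04 to 45.99 (2.35, adjusted p = 6.83e-09) and fell from 49.5 to 8.13 (-2.57, adjusted p = 0.00012). Scd2, a fatty acid desaturase, fell from 1045 to 271 CPM in BS6 against BS2 (-1.91, adjusted p = 1.65e-05). Lpcat3, which places polyunsaturated chains into phospholipids beside Acsl4 activity, was called in the direction opposite to Acsl4 (-1.52 and 1.76). Herc2, a ubiquitin ligase that turns over the ferritin receptor Ncoa4, rose from 119 to 419 CPM in SB4 against SB2 (1.83, adjusted p = 6.84e-09).

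**Figure D4:**
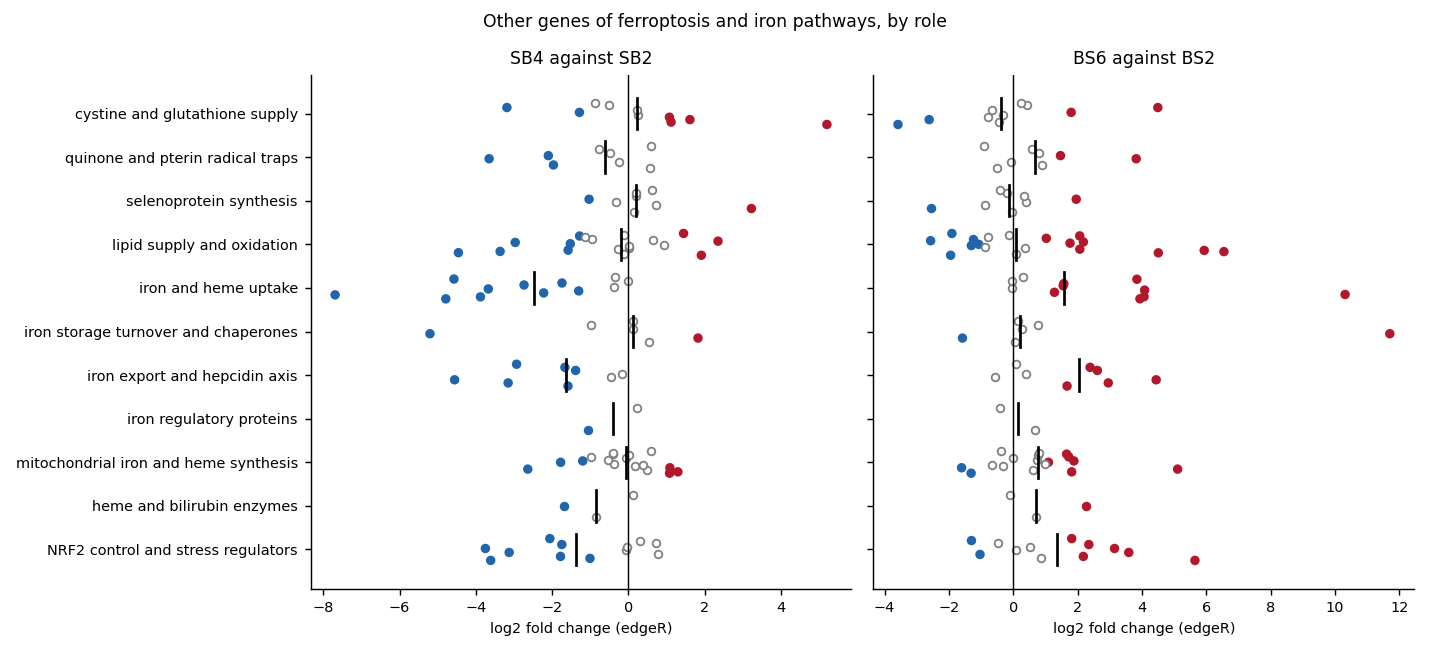
Log2 fold change of each tested pathway gene by role, in SB4 against SB2 and BS6 against BS2, with red for called higher, blue for called lower, open grey for not called and a black bar at the median. Iron and heme uptake has medians of -2.48 and 1.57, and selenoprotein synthesis medians of 0.21 and -0.12.

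Among pathway genes averaging 10 CPM or more in the higher group, the 3 largest folds of BS6 against BS2 came with a wide spread between the BS6 libraries. Lcn2, the iron-siderophore binding protein of neutrophils, measured 97.4, 2259 and 263 CPM in BS6 against 0 to 8 counts per library in BS2 (fitted log2 fold change 11.70, adjusted p = 0.00143). Hp measured 61.0, 1032 and 127 against 4 to 7 counts (fitted 10.31, adjusted p = 0.00116), and Alox5, a lipoxygenase of myeloid cells, 13.0, 147 and 21.001 CPM against a mean of 1.01 (5.93, adjusted p = 0.00342). Fitted values against so few counts depend on the prior count of the fit. All 3 genes were highest in BS6 replicate 2, the library with the high neutrophil markers. The neutrophil list summed to 1202, 21694 and 2839.5 CPM in BS6, 728 to 1297 in SB2 and 0.767 to 4.84 in the brain-rich libraries, and its part in these folds was not tested. Alas2, the red cell form of the first enzyme of heme synthesis, rose from 8.30 to 280 CPM in BS6 against BS2 (5.11, adjusted p = 3.97e-05), and Alox12, a platelet lipoxygenase, from 1.24 to 28.2 (4.51, adjusted p = 0.000341).

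Within the bone-rich libraries, 5 of 105 pathway genes were called in BS6 against SB2, 2 higher and 3 lower, while 1.86% of all genes were called. Alad, the second enzyme of heme synthesis, measured 16.3, 17.2 and 16.5 CPM in SB2 and 98.8, 45.7 and 77.6 in BS6 (log2 fold change 2.16, adjusted p = 0.0293). Slc25a37, mitoferrin, which brings iron into mitochondria for heme, measured 86.5, 101 and 85.3 in SB2 and 262, 163 and 182 in BS6 (1.17, adjusted p = 0.0343). Both were higher in every BS6 library than in any SB2 library. Ptgs2 (cyclooxygenase), often read as a marker of ferroptosis, was lower in BS6 at 9.06, 12.02 and 17.2 CPM against 96.1, 32.4 and 65.0 (-2.32, adjusted p = 0.0409). Fads2, a desaturase of polyunsaturated fatty acids, was lower at 25.0, 17.8 and 36.9 against 74.4, 66.0 and 63.0 (-1.34, adjusted p = 0.0418). Srxn1, an NRF2 target that repairs peroxiredoxins, was lower at 45.9, 29.1 and 41.6 against 73.5, 84.1 and 81.9 (-1.02, adjusted p = 0.0353). Leaving out BS6 replicate 2 gave 6 calls among the pathway genes, beside 667 of 16608 genes. Leaving out any other library gave 0, beside 0 to 34 calls over all genes. In those edgeR fits 23 to 40 had an unadjusted p below 0.05, beside 2938 to 4823 of all genes. DESeq2 gave 8 calls, beside 1072 of 16556 genes. Between the brain-rich groups 0 of 100 pathway genes were called with edgeR and 0 with DESeq2. There 11 had an unadjusted edgeR p below 0.05, beside 1933 of 16278 genes.

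Markers of other cells also varied inside the bone-rich libraries, some in the order of a listed gene and some not, and their part in these results was not tested. Erythroid markers summed to 1271, 4509 and 1425 CPM in SB2 and to 8323, 12426 and 7513 in BS6, so that all BS6 libraries were above SB2, as for Slc40a1 and Alad, and opposite to Slc7a11 and Fth1. Alas2 measured 26.4, 106 and 34.8 in SB2 and 237, 336 and 266 in BS6 (2.35, adjusted p = 0.0596), highest in SB2 replicate 2 and BS6 replicate 2, as was the erythroid sum. Osteoblast and osteocyte markers summed to 4827, 3322 and 5294 in SB2 and 1714, 1194 and 2830.0 in BS6. Ibsp led this sum, with means of 3215 CPM in SB2 and 873 in BS6, and was lower in every BS6 library. Phex was higher in every BS6 library (40.8 to 90.4 CPM against 28.1 to 34.6), and the other genes of the list overlapped. The list had a median log2 fold change of -0.17 in BS6 against SB2, with 0 genes called. Osteoclast markers summed to 1945, 622 and 2435 in BS6. In BS6 both of these bone sums were lowest in replicate 2 and highest in replicate 3, as Tfrc was. Among the osteoclast genes, Ctsk and Acp5 had that order, while Ocstamp, Atp6v0d2 and Oscar were highest in BS6 replicate 1. In SB2, where osteoclast markers summed to 2014, 2087 and 1890.3, neither bone sum had the order of Tfrc. Skeletal muscle markers summed to 1355, 1562 and 196 in SB2 and to 50.9, 44.5 and 330.1 in BS6, which overlap. Macrophage markers summed to 596 to 606 in SB2 and to 839.5, 561 and 674 in BS6, with BS6 replicate 1 the highest for this sum and for Hmox1. In that group C1qa was lowest in replicate 1 (109 CPM against 134 and 131), and the other genes of the list were highest there. In SB2, replicate 1 was the highest for the macrophage sum and the lowest for Hmox1 (202 CPM against 282 and 248). In the brain-rich libraries neuron markers summed to 9454 to 9771 CPM in SB4 and 9139 to 9396 in BS2. On this sum every SB4 library was above every BS2 library, the reverse of Slc7a11. Of the neuron genes only Snap25, Gad1 and Nefl separated in that way, and the others overlapped. Map2 (mean 1465 CPM in SB4, 1507 in BS2) and Rbfox3 (306 and 311) had higher means in BS2. Astrocyte markers summed to 4743 to 5032 in SB4 and 4657 to 5166 in BS2, which overlap and are mostly Slc1a2. Of the 6 astrocyte genes, Gfap (43.5 to 50.6 in SB4, 64.4 to 76.1 in BS2) and Gja1 (144 to 155 in SB4, 169 to 191 in BS2) were higher in every BS2 library, as Slc7a11 was, and the other 4 overlapped. Their part in the difference in Slc7a11 was not tested. In the same libraries macrophage markers summed to 139 to 158 in SB4 and 129 to 136 in BS2, the reverse of Slc7a11. Taken alone, every macrophage gene of the list overlapped between SB4 and BS2. Mrc1 and Adgre1 had higher means in BS2, and Cd68, Csf1r, C1qa and Mertk had higher means in SB4.

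**Figure D5:**
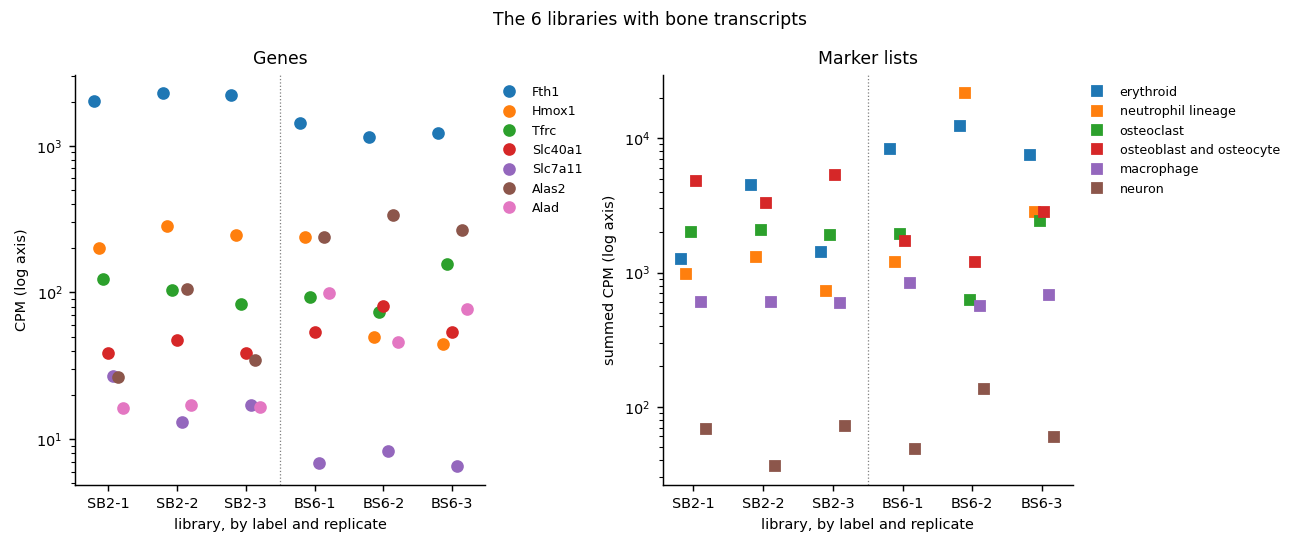
CPM (log axis) in the 6 bone-rich libraries, for 7 iron, heme and cystine genes on one side and for the summed markers of 6 cell types on the other. Slc7a11 is lower and Alad and the erythroid sum are higher in all 3 BS6 libraries than in SB2, and BS6 replicate 2 stands out at 21694 CPM for the neutrophil lineage.

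Likeness of pattern was measured as Pearson's r of log2(CPM + 1) over the 12 libraries, among genes averaging 10 CPM or more, and is a description in which the bone-rich and brain-rich split enters every value. Nfe2l2 was nearest to Steap4 and Icam1 (r 0.997 for both), Acsl4 to Naa25 (0.996) and Cul5 (0.995), Slc40a1 to Notch1 and Slc25a45 (both 0.996), Aifm2 to Grrp1 and Slc7a6os (both 0.994), Hmox1 to Csrp2 (0.991) and Akr1b8 (0.990), Ftl1 to Fance (0.989) and Unk (0.988), and Fth1 to Smarcb1 and Gm10052 (both 0.985). Between 482 genes (Fth1) and 3211 genes (Nfe2l2) had an r above 0.9 with these 7. The genes that did not follow the split had few neighbours: Slc7a11 had 25 above 0.9, led by Ednrb (0.947) and Cse1l (0.936), Tfrc had 14, led by Uhrf1bp1 (0.932) and Mlip (0.929), and Gpx4 had 5, led by Exosc4 (0.945) and its copy Gpx4-ps2 (0.934).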

How the data were processed

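Total RNA from tissue pieces was made into poly(A) paired-end libraries (NEBNext Ultra II). Per the study's methods, the authors trimmed reads with fastp and aligned them to mm10 with HISAT2 2.1.0 (version from the submitters' processing notes). The counting program, its annotation and its strand setting are not given in the sources used here. The deposited values are whole read counts per gene symbol. The study describes a batch adjustment of counts with ComBat_seq, and whether the deposited counts precede it is not stated. Columns were mapped to samples by their titles, and 0 columns were left unmapped.

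The counts were analysed as deposited. The listed genes, the pathway and marker lists and the comparisons of like tissue content were chosen with earlier results of these data known. Genes were filtered with filterByExpr (minimum count 10), scaled with TMM and tested with the edgeR 4.0.16 quasi-likelihood test (robust, R 4.3.3) in fits of the 2 groups compared, 3 libraries each, with Benjamini-Hochberg adjustment over all genes tested and calls at an adjusted p below 0.05 and a log2 fold change beyond 1. The 2-group design and thresholds follow the study, which used DESeq2, and DESeq2 1.42.0 was run as an alternative. The change from SB2 to SB4 and that from BS2 to BS6 were set against each other in an edgeR contrast over 12 libraries. Ratios were tested by exact permutation, two-sided (scipy 1.17.1). The scripts were tested on simulated data.

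Named pathway genes were, in each of the 2 day comparisons, the 5 called with the highest and the 5 with the lowest log2 fold change among genes averaging 10 CPM or more in whichever group was higher, and 3 and 3 by the same rule elsewhere. Genes named beyond these were chosen after their values were seen. Of the 22317 symbols, 22022 matched GENCODE M21, which gave positions, exon lengths, the transcripts searched for iron-responsive elements and the 100-base windows used to look for copies. With 3 counts taken as the floor, a gene is measurable above 0.218 CPM in every library. Alternatives were other tools, scalings, filters, a replicate block and each library left out, applied to the pathway counts after the data were seen. The injured organs and uninjured controls were not analysed here.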

Additional observations from a re-analysis of the deposited data

Results flagged for a closer look

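The change from BS2 to BS6 and the change from SB2 to SB4 differed for each of the 10 genes in an edgeR quasi-likelihood contrast over the 12 libraries (adjusted p below 0.05), as they did for 84.9% of all 18068 genes. The difference of the log2 fold changes, BS6 change minus SB4 change, was 10.46 for Hmox1 (adjusted p = 5.76e-07), 6.26 for Nfe2l2 (4.36e-10), 4.15 for Aifm2 (3.84e-08), 4.07 for Slc40a1 (2.28e-08), 3.36 for Ftl1 (1.57e-06) and 1.57 for Fth1 (2.25e-06). It was 0.56 for Gpx4 (0.0211), -1.15 for Tfrc (0.00619), -1.57 for Slc7a11 (0.000766) and -3.07 for Acsl4 (3.79e-08). SB4 and BS2 are brain-rich while SB2 and BS6 are bone-rich, so tissue content turns in opposite directions in these 2 changes and cannot be told apart from the day. The difference for Gpx4 did not pass without SB4 replicate 3 (0.47, adjusted p = 0.0620), SB2 replicate 2 (0.49, 0.0547) or BS2 replicate 3 (0.38, 0.0812). With 3 libraries a group, no library was tested for standing apart.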

How the results depend on the processing

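Both day comparisons kept 7 of 10 listed genes called under every alternative that used the same thresholds, and 9 (SB4 against SB2) and 8 (BS6 against BS2) passed on adjusted p alone. Over all alternatives, 522 of the listed genes' log2 fold changes kept direction and side of the threshold, 31 reversed, 6 lost and 1 gained the threshold. All 96 alternative values of the ratios and 177 of 180 of the differences between changes stayed as reported. Upper-quartile factors moved the median over all genes in SB4 against SB2 from -0.0149 to -0.145, which lowers every gene's change by that shift, and total counts alone moved it to -0.105.

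In BS6 against SB2 the 303 calls over all genes became 1072 with DESeq2, 1273 with all 12 libraries in 1 fit, 932 on adjusted p alone, and 0 to 667 on leaving out a library, with 0 without any SB2 replicate, 34 and 32 without BS6 replicates 1 and 3 and 667 without replicate 2. An unadjusted p below 0.05 was still met by 2938 to 5854 genes in those fits. The 1 listed gene called there became 2 on adjusted p alone and 0 to 1 on leaving out a library, and without BS6 replicate 1 the gene called was Hmox1. In SB4 against BS2 the 24 calls became 46 with DESeq2, 50 with no filter, 8 with all 12 libraries in 1 fit, 153 on adjusted p alone and 18 to 85 on leaving out a library, with 59 without BS2 replicate 1, 41 without SB4 replicate 2 and 85 without SB4 replicate 3. There the listed genes called went from 0 to 1 on adjusted p alone. Read for the pathway genes, which was chosen after seeing the data, the 52 calls of SB4 against SB2 became 84 of 104 on adjusted p alone, beside 83.3% of all genes. The calls of BS6 against BS2 stayed within 1.5 times of 54. The 5 pathway calls of BS6 against SB2 became 8 with DESeq2, 9 with all 12 libraries in 1 fit, 13 on adjusted p alone, 0 with the replicate block and 0 to 6 on leaving out a library, and the 0 of SB4 against BS2 became 0 to 2 on leaving out a library. The cause of these moves was not tested.

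A replicate block left 0 calls over all genes and 0 of 10 in BS6 against SB2 (3950 genes at an unadjusted p below 0.05, Slc7a11 at -1.32 with adjusted p = 0.120) and gave 61 calls in SB4 against BS2. With the block, Fth1 no longer passed in BS6 against BS2 (adjusted p = 0.0780) or BS6 against SB2 (0.138), and Tfrc passed in BS6 against BS2 (-0.65, 0.0495). Same-numbered libraries deviated together at r of -0.153 to 0.138 over 11373 genes, and in no comparison were all 3 above 0.1, so the numbers were not taken to pair libraries.

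The log2 fold changes that reversed were all of genes that did not pass in the fits reported. In BS6 against SB2, Nfe2l2 turned to -0.00281 with DESeq2, -0.0153 with upper-quartile factors, -0.0550 with total counts, -0.0148 with no filter and -0.00244 with the replicate block, Gpx4 to -0.0358 and Tfrc to -0.0106 with total counts. In SB4 against BS2, Nfe2l2 turned to 0.000246 with total counts and 0.00292 with no filter. Leaving out a library gave, in SB4 against SB2, -0.44 to 0.10 for Slc7a11. In BS6 against SB2 it gave -0.10 to 0.13 for Gpx4, -0.168 to 0.0851 for Aifm2, -0.104 to 0.0589 for Nfe2l2, -0.13 to 0.30 for Ftl1 and -0.30 to 0.28 for Tfrc. In SB4 against BS2 it gave -0.171 to 0.0339 for Gpx4, -0.26 to 0.12 for Nfe2l2, -0.0937 to 0.00867 for Acsl4, -0.00928 to 0.116 for Fth1, -0.148 to 0.0143 for Ftl1 and -0.102 to 0.0691 for Slc40a1.

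Depth limits Ftl1 most, at 33 to 190 counts per library with most of its length shared with copies. The 3 libraries per group, the spread of BS6 and the change of tissue content within each label limit the other results.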

Other observations

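Alad, the second enzyme of heme synthesis, was higher at the later day under both tissue labels, although tissue content turns in opposite directions there. It measured 16.3, 17.2 and 16.5 CPM in SB2 and 44.3, 38.5 and 40.2 in SB4 (edgeR log2 fold change 1.30, adjusted p = 1.01e-07), and 16.3, 32.6 and 15.9 in BS2 against 98.8, 45.7 and 77.6 in BS6 (1.81, adjusted p = 0.00538). Between the brain-rich groups the difference, SB4 against BS2, was 0.90 and did not pass (adjusted p = 0.401), with BS2 replicate 2 the nearest to SB4 at 32.6. Alad was the only pathway gene called higher in both day comparisons, and none was called lower in both. Over all genes, 27.8% were called higher and 28.6% lower in SB4 against SB2. The shares were 29.0% and 26.5% in BS6 against BS2. The share of all genes called the same way in both is not given here, so the count for the pathway has no background. Alad was singled out after its values were seen.

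The processed copy Gpx4-ps2 measured 58.4 CPM on average in SB2, 39.7 in SB4, 38.7 in BS2 and 51.0 in BS6, so that bone-rich means exceeded brain-rich ones for Gpx4 and its copy alike.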
